A study of Mus musculus with 4 samples.

Results

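The WT pool is the RNA of wild-type mouse lines that was hybridised, as the common partner, on every array of a series of BCR-ABL1-transformed fetal liver lines. It was read from 4 of the 8 array channels, the Cy3 channel on the arrays of the 3 R/R clones and the Cy5 channel on the dye-swapped array of the R/R pool. These readings are called hybridisations 1 to 4. The labels give all 4 the same name, WT pool, and they were taken as 1 RNA pool measured 4 times, with a spread that is technical. The design text also counts 3 control replicates, and whether these were pooled once or separately is not stated. If the pools differed, the spread would include differences between them. No test between conditions was made. The lines, of mixed C57BL/6J x CD-1 background, grew out as transformed clones after a p185 BCR-ABL1 transgene was introduced into fetal liver. The R/R lines, which carry point mutations on both alleles of Cdk4 and Cdk6, were not compared here. Cells were taken while cycling asynchronously in RPMI 1640 medium. The labels do not say which lines, or how many, entered the WT pool, nor which promoter drove the transgene.

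Of 55681 probes on the array, 27656 had 1 gene symbol, and these gave 20972 genes. Within each hybridisation every probe was ranked by brightness and the rank was written as a percentile, 100 being the brightest probe. The mean percentile over the 4 hybridisations is given below, for the brightest probe of each gene. A level is the log2 processed intensity minus that array's median over the probes above background in all 4 hybridisations. A gene is called detected where at least 1 of its probes was well above background in all 4 hybridisations, and not detected where no probe was in any. Brightness depends on the probe as well as on the transcript, so an order between genes is one of brightness. Between 2 or more detected probes of the same gene the median range was 1.90 log2 units over 2811 genes. In bulk RNA, fewer cells of a type and less RNA per cell cannot be told apart.

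BCR-ABL1 is a fusion tyrosine kinase that signals through STAT5 and RAS, and its shorter form is known from acute lymphoblastic leukaemia of B-cell precursors. B-cell development starts with the factors E2A, EBF1 and PAX5. Precursors then rearrange their immunoglobulin genes with the RAG recombinase and carry a pre-B cell receptor, in which VpreB and lambda5 stand in for the light chain. Fetal liver is a site of blood formation that holds erythroid, myeloid and lymphoid precursors beside hepatocytes and stroma.

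Across all genes, 11703 of 20972 were detected, a share of 55.8%. Another 1728 (8.24%) were above background in some hybridisations, and 7541 (36.0%) were not detected. The median percentile was 83.1 for detected genes, 48.8 for those seen in some hybridisations and 23.4 for genes not detected, against 63.6 over all genes. Calls near the limit overlapped in brightness. The dimmest detected gene lay at 50.2 and the brightest not detected at 51.6. The share rose with the number of probes, from 50.1% of genes with 1 probe to 70.0% with 2 and 79.6% with 3 or more. Protein-coding genes were detected in 57.3% of 19766 cases and lncRNA genes in 27.8% of 989. Probes of lincRNA regions, which carry no symbol here, were above background in 28.5% of 16194 cases.

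The B-lineage markers were all detected. Vpreb1, a surrogate light chain gene, had levels of 8.27, 8.45, 8.33 and 8.36 in hybridisations 1 to 4 and a percentile of 99.6, which placed it 93rd among 20972 genes. Igll1, which encodes lambda5, had levels of 6.23, 6.19, 6.33 and 6.39 and lay at 97.9. Ebf1, a factor that opens the B-cell programme, had levels of 3.96, 3.76, 4.01 and 3.97 and lay at 94.1. These levels had an SD of 0.11. Pax5, the factor that maintains B-cell identity, was the dimmest of the 4 markers. Its levels were -0.13, -0.28, -0.045 and -0.41, near the array median, at percentile 76.8, and its second probe lay at 63.1. The 4 markers covered a wide span of brightness, and for each the hybridisations lay close together.

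**Figure D1:**
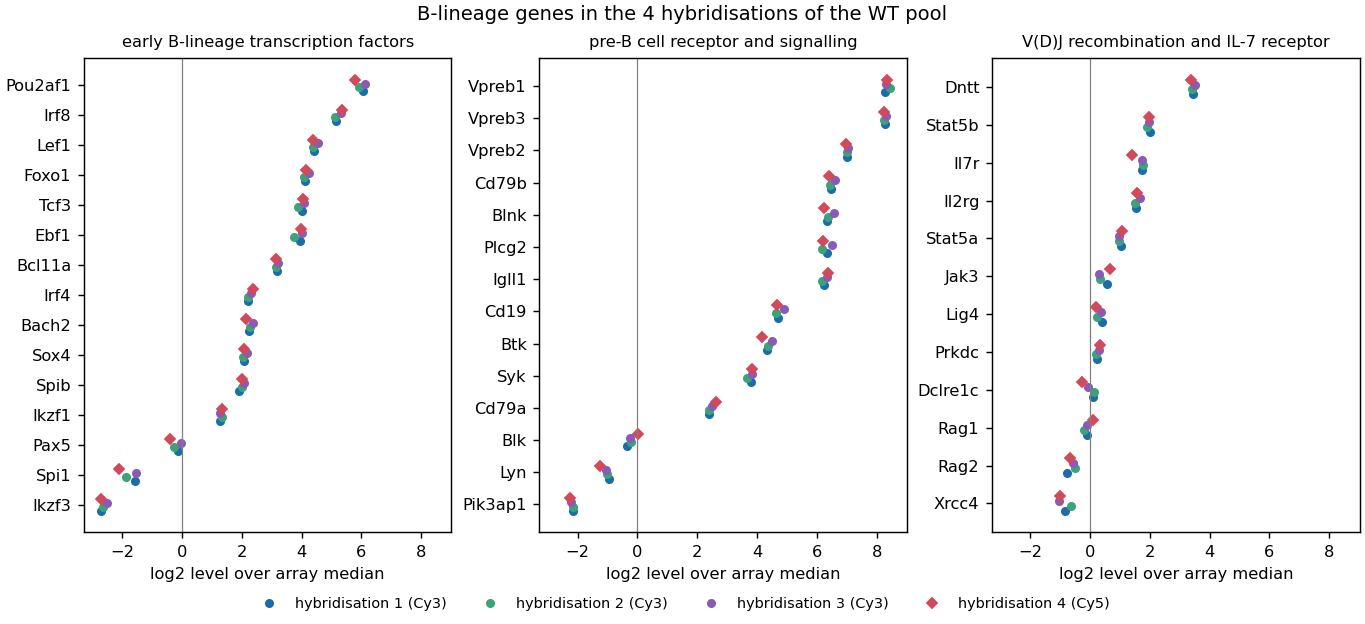
Levels (log2 processed intensity over the array median of detected probes, x axis) of 41 genes of 3 B-lineage lists in the 4 hybridisations of the WT pool, circles for Cy3 and diamonds for Cy5. Points of a gene lie close together beside the distance from Vpreb1 (8.35) to Ikzf3 at the bottom of the first panel.

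Genes of the 3 early B-cell lists examined were detected without exception, 41 of 41, against 55.8% of all genes. Their median percentile was 88.7, and 18 of them lay at 90 or above, as did 15.7% of all genes. These and the other lists were chosen with earlier results of these data known, so the counts were not independent of the data. Of the 15 transcription factors, the brightest were Pou2af1, a coactivator of octamer promoters, at 97.6, Irf8 at 96.7, Lef1 at 95.2 and Foxo1, which drives Rag expression, at 94.6. Ikzf3 (59.5) and Spi1 (66.6), which encodes PU.1 and is known to be high in myeloid cells, were the dimmest of that list.

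The pre-B cell receptor list was the brightest of the 3, with 14 of 14 genes detected, 10 of them at 90 or above and a median of 96.9. The surrogate light chain genes Vpreb1 (99.6) and Vpreb2 (98.6) led it together with Vpreb3 (99.6), followed by Cd79b, a signalling chain of the receptor, at 98.1. Vpreb3 had a mean level of 8.27 ± 0.025 (SD, n = 4 hybridisations) and Vpreb2 one of 7.01 ± 0.021. Cd79a, the partner chain of Cd79b, lay at 89.5. Downstream of the receptor, the adaptor gene Blnk lay at 98.0, Plcg2 at 97.9, Btk at 95.03 and Syk at 93.7. The kinase genes Blk (76.9) and Lyn (71.5) and the adaptor gene Pik3ap1 (63.2) were dimmer. The heavy chain gene Ighm and other immunoglobulin constant genes had no probe matched to their symbol and were not analysed here.

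The recombination and IL-7 receptor list had 12 of 12 genes detected in a narrower band, from 72.9 to 92.8 with a median of 79.96. Dntt, the terminal transferase that adds N nucleotides and is known to be scarce in fetal B-cell precursors, was its brightest gene, with levels of 3.45, 3.40, 3.52 and 3.37. Rag1 had levels of -0.086, -0.22, -0.092 and 0.089 and lay at 77.6, and Rag2 lay at 74.4. Each had a second probe that was not above background in any hybridisation, at 33.6 for Rag1 and 38.3 for Rag2. Il7r, the receptor chain for IL-7, lay at 85.9, with levels of 1.73, 1.77, 1.73 and 1.41.

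Genes of later B-cell stages were detected in large part, where 55.8% of all genes were. In the mature B list 11 of 13 genes were detected, led by the tetraspanin gene Cd37 (96.4), Ltb (95.7), H2-Ab1 (91.7) and Cd72 (91.5). Cd40 (43.4) and H2-Aa (19.5) were not detected. H2-Aa and H2-Ab1 encode the chains of one MHC class II molecule, and each symbol rests on its own probes. Ms4a1, which encodes CD20, lay at 61.2. In the plasma cell list 5 of 6 genes were detected, with Mzb1 at 98.0 and Xbp1 at 96.9, and Tnfrsf17, which encodes BCMA, was not detected (31.8). Jchain lay at 81.7 and Sdc1, which encodes the surface proteoglycan CD138, at 68.4. Prdm1, the regulator of plasma cell fate, lay at 60.3.

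**Figure D2:**
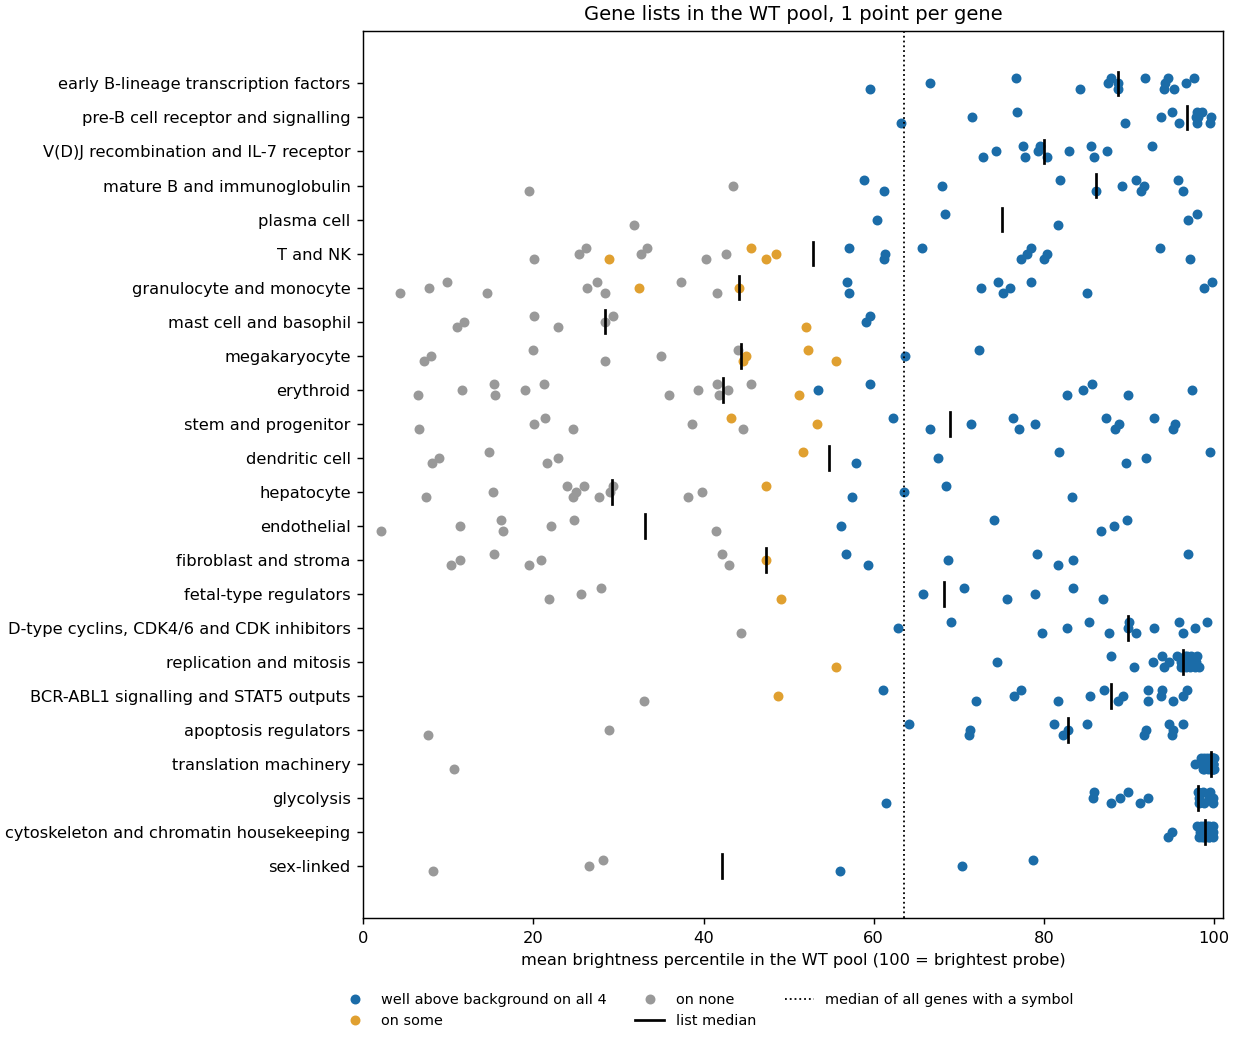
Mean brightness percentile in the WT pool (x axis) of the genes of 24 lists, 1 point per gene, with the list median as a bar and the median of all genes (63.6) as a dotted line. The early B-lineage and growth lists lie to the right, and most blood, hepatocyte and endothelial lists spread widely. The mast cell, megakaryocyte, hepatocyte and endothelial lists have no gene at 90 or above.

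Genes of other blood lineages were detected less completely, 38 of 96 over 6 lists (39.6%, against 55.8% of all genes), with a median percentile of 44.8. By list, 11 of 22 T and NK genes, 10 of 21 granulocyte and monocyte genes, 2 of 9 mast cell genes, 2 of 12 megakaryocyte genes, 7 of 20 erythroid genes and 6 of 12 dendritic cell genes were detected. Where most probes of a gene had to be above background, 6 T and NK genes and 1 mast cell gene were counted. With 1 hybridisation sufficing, 6 megakaryocyte genes were counted. Myeloid genes fell on both sides. The granule and calprotectin genes Mpo (4.36), S100a9 (7.76), S100a8 (9.89) and Ltf (14.5) were not detected, nor was Cebpa (26.3), the regulator of granulocyte fate. The Fc receptor gene Fcgr3 (76.0), Cebpb (75.2), the elastase gene Elane (74.6) and the lysozyme genes Lyz1 (72.6) and Lyz2 (56.9) were detected. Of the T-cell receptor complex, Cd3e was detected at 78.5, while Cd3d (26.2) was not and Cd3g (28.9) was above background in 1 hybridisation. The mast cell genes Cpa3 (11.1) and Fcer1a (11.8) and the platelet genes Pf4 (7.91) and Gp1ba (7.08) were not detected.

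Of the 96 genes of these 6 lists 7 lay at 90 or above, a smaller share than the 15.7% of all genes. Csf3r, the receptor for G-CSF on neutrophils, had levels of 8.75, 8.44, 8.85 and 8.50 and lay at 99.8, on a single probe. Siglech, a receptor of plasmacytoid dendritic cells, lay at 99.5 on one probe and at 67.8 on the other. Itgam, the integrin chain CD11b, lay at 98.8 on one probe, while its other probes lay at 54.3 and 51.3 and were above background in 3 and 2 hybridisations. Hbb-bt, an adult beta-globin gene, lay at 97.4. Cd2 lay at 97.2 and 91.8 on its probes, the kinase gene Lck at 93.7 and Tcf4, a factor of plasmacytoid dendritic and B cells, at 92.0 and 63.8. Below 90, Bst2 (89.7) and Ccr7 (81.8), a homing receptor gene, came next among dendritic cell genes. The receptor genes Csf2ra and Csf1r (78.5) followed in the myeloid list. The coreceptor gene Cd4 (80.4) and Zap70, a kinase of the T-cell receptor, followed in the T-cell list. Itgb3 (72.4) and Nfe2 (63.7) were the megakaryocyte genes detected, and Hdc (59.5) and Il1rl1 (59.1) those of mast cells. The other probes of Il1rl1, at 16.5 and 9.14, were above background in no hybridisation. For Siglech, Itgam and Tcf4 the call of a bright gene thus rests on 1 of its probes.

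Among erythroid genes the globins did not lie together. Hbb-bt had levels of 5.74, 5.70, 5.93 and 5.71, Hbb-bh1, an embryonic beta-like globin gene, a mean level of 1.60 ± 0.014 (SD, n = 4 hybridisations), and Hbb-b2 one of 1.36 ± 0.041. Hbb-b1, at 51.2, was above background in 1 hybridisation, Hba-a2 was detected at 59.6 and Hba-a1 (41.6) was not. The adult beta-globin genes are close in sequence, as are the alpha-globin genes, so which of them a probe reads is uncertain. The haem synthesis gene Alas2 (11.55), the receptor gene Epor (39.3) and Klf1 (42.8) were not detected, and Tfrc, the transferrin receptor of dividing cells, lay at 89.8.

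Over the hepatocyte, endothelial and stromal lists 16 of 43 genes were detected (37.2%, against 55.8% of all genes) and the median was 39.8, against 63.6. Albumin (Alb, 27.8), Afp (29.4), Ttr (24.7), Apoa1 (15.2) and Hnf4a (39.8) were not detected. Of the 16 genes of the hepatocyte list, which leaves out Slc10a1 described below, the brightest was Apoa2, at 83.3 on one probe and 61.9 on the other, followed by Tat (68.5), the fibrinogen gene Fga (63.6) and Trf (57.4). Only 2 hepatocyte genes were counted where most probes of a gene had to be above background. Among 12 endothelial genes Eng (89.8), Egfl7 (88.3) Kdr (86.7) and Pecam1 (74.2) were detected, whereas Cdh5 (22.0), Tie1 (2.10) and Lyve1 (16.5) were not. Vim, an intermediate filament gene that blood cells also express, was the brightest of the stromal list at 97.0. Tagln (83.4), the fibronectin gene Fn1 (81.7) and Sparc (79.2) came next, and Pdgfra (15.4), Pdgfrb (10.3) and Cxcl12 (19.5) were not detected. Fga, Trf, Kdr and Sparc each had a second probe above background in no hybridisation, at 21.6, 31.4, 45.2 and 27.7. Alb and Afp, which define hepatocytes of the fetal liver that the labels name as the source, were above background in no hybridisation.

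Of the stem and progenitor genes 12 of 20 were detected, a share of 60% near the 55.8% of all genes, with a median of 69.0 against 63.6. Myb, a factor that blood progenitors need, lay at 95.4, Ly6a at 95.2, Mycn at 93.0 and Lmo2 at 88.9. Kit (20.03), Cd34 (38.6), Gata2 (21.4), Mecom (24.7), Meis1 (6.54) and Procr (44.6) were not detected. Of 10 genes known from fetal-type cells 6 were detected, also a share near that of all genes, led by Arid3a (86.9), Igf2bp3 (83.5), Plagl1 (79.0) and Igf2bp2 (75.6). Lin28b, a regulator of fetal lymphopoiesis (25.6), Igf2bp1 (21.8) and Igf2 (28.0) were not detected, whereas Lin28a had levels of -0.92, -1.19, -1.45 and -1.28 and lay at 70.7.

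Growth genes were bright. In the replication and mitosis list 21 of 22 genes were detected, against 55.8% of all genes. In that list 19 lay at 90 or above, against 15.7% of all genes, and the median was 96.3. Mcm6, a helicase subunit, lay at 98.2, Pcna, the sliding clamp, at 98.1, and the proliferation markers Mki67 and Birc5 at 97.8 each. Aurkb (55.5) was above background in 3 hybridisations. Among cyclins, kinases and inhibitors of the G1 phase 14 of 15 genes were detected, against the same 55.8%. Ccnd3 had levels of 7.63, 7.70, 7.49 and 7.85 and lay at 99.1, ahead of Cdk4 (97.8) and Ccnd2 (95.9). Cdk6 had levels of -2.45, -1.74, -2.49 and -2.28 and lay at 62.9, on 1 probe. Cdkn2a, the locus of p16INK4a and ARF, lay at 96.3 on one probe and 83.8 on the other, with levels of 4.97, 4.97, 5.19 and 4.95. Cdkn1c was not detected (44.4).

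Of the genes tied to BCR-ABL1 and STAT5 signalling 16 of 18 were detected, against 55.8% of all genes, with a median of 87.8. The feedback phosphatase gene Dusp6 lay at 96.8, the survival gene Bcl2l1 at 96.4, Mcl1 at 95.2 and the STAT5 target Socs2 at 93.8. Cish, another STAT5 target, lay at 92.2 and Myc at 93.8. Sos1 was not detected (33.0). In the apoptosis list 13 of 15 genes were detected, against the same 55.8%. The effector genes Bak1 (95.04) and Bax (94.7) were bright, Bcl2 lay at 82.3 and Bcl2l11, which encodes BIM, at 64.1, while Bik (28.9) and Hrk (7.64) were not detected. All 17 glycolysis genes were detected, with a median of 98.1, led by Gapdh (99.9), Ldha (99.8), Aldoa (99.5) and Eno1 (99.4). All 23 genes of the cytoskeleton and chromatin list were detected, none below 94.6, led by Actb (99.9), Ppia (99.9), Tuba1b (99.8) and Npm1 (99.5).

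Ribosomal protein genes were the largest family among the brightest genes that was counted. Of 83 genes with such a symbol 81 were detected, against 55.8% of all genes, 69 lay at 99 or above, and the median was 99.6. They were 46 of the 100 brightest genes and 11 of the 30 brightest. Rps10, Rps12, Rpl35, Rpl10 and Fau lay between 99.94 and 99.96. Rpl39l (25.9) and Rpl3l (30.03), copies known from testis and muscle, were not detected. Rpl10l was detected at 65.5, the dimmest of the detected members. Eef1a2, the elongation factor copy of muscle and neurons, was not detected (10.7), and its paralog Eef1a1 lay at 99.3. Histone genes held 8 of the 100 brightest places. Ribosomal protein genes have many processed copies and histone genes are near-identical, so the gene behind each probe is uncertain.

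The very top of the order was held by other genes. Slc10a1, the bile acid transporter of hepatocytes, was the brightest gene, with levels of 10.1, 9.31, 10.3 and 10.0. Its second probe lay at 18.2 and was above background in none. Probe sequences were not used here, so it was not checked which transcript the bright probe of this gene, or of the next ones, reads. Kctd14 came next, with its other probes at 69.8 and 51.3, then Glrx2, with its others at 90.1 and 47.6. Elk1, a transcription factor downstream of ERK, had its second probe at 42.7, and the others of Ttc38 lay at 72.9, 54.2 and 52.6. Of the 30 brightest genes 12 had another probe below 90, 12 had 1 probe only, and 46 of the 100 brightest probes had no symbol here. By contrast all 7 probes of Gapdh lay between 96.7 and 99.9. The 30 genes included Actb and Ppia as well, and the small RNA Rn4.5s, the histone gene H2ac12, Exosc2, Med16 and Milr1.

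**Figure D3:**
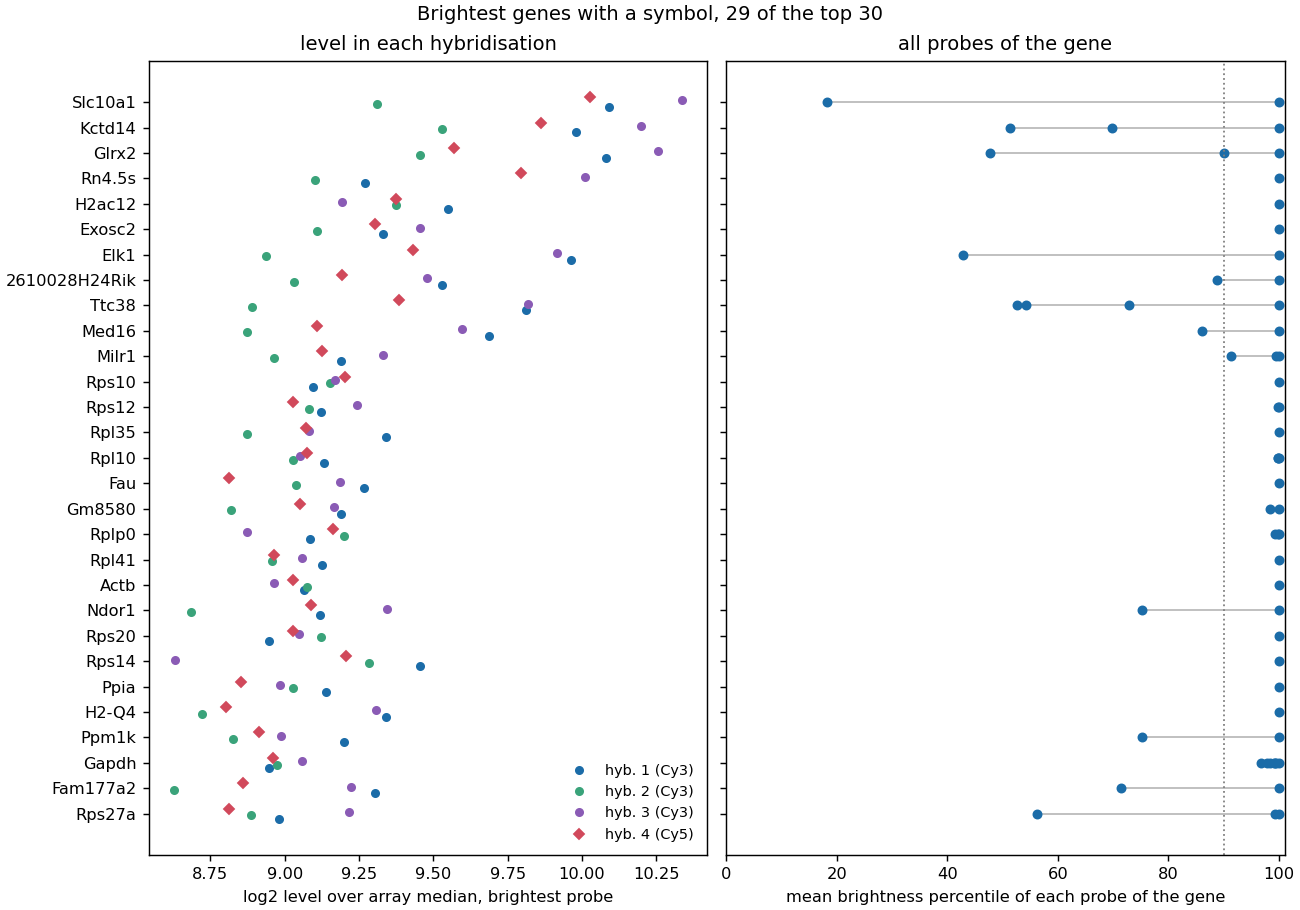
The brightest genes with a symbol, 29 of the top 30, brightest at the top. The left panel shows the level of the brightest probe in each hybridisation (log2 over the array median), and the right panel the mean percentile of every probe of the gene, with 90 as a dotted line. Slc10a1, Elk1 and Glrx2 have probes far below their brightest, and hybridisation 2 is the lowest point for most genes of that kind. Over all of the top 30 genes hybridisation 2 was the lowest for 19.

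The 12 genes with a discordant probe also varied together. Hybridisation 2 gave the lowest level for 11 of them, a median of 0.376 log2 units under the mean of the gene's 4 values, and their median SD was 0.298. Among the 11 ribosomal protein genes of the same 30, hybridisation 2 was lowest for 4 and the median SD was 0.131. Over all detected genes it was lowest for 3754 of 11703. Bright genes in general often had a low hybridisation 2, the lowest for 49 of the 100 brightest and 192 of the next 400. Of the 22 genes among these 100 with another probe below 90, it was lowest for 13, with a median deviation of -0.182. Of the 46 ribosomal protein genes among these 100, it was lowest for 23, with one of -0.067. A low hybridisation 2 was thus not particular to genes with a discordant probe. Among the 12, Elk1 had 9.96, 8.94, 9.92 and 9.43. Ttc38 had 9.81, 8.89, 9.82 and 9.39, and Med16 had 9.69, 8.87, 9.60 and 9.11. In these 3 genes hybridisations 1 and 3 were high, 4 was between and 2 was low.

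Promoter windows of RefSeq (GRCm38.p6, 250 bases before to 50 after the start of a gene, the first listed where a gene has several) are shown because equally bright genes had unlike promoters. Of 11703 detected genes 9376 had a window. In the stretches below, from 120 bases before to 20 after the start, lower case gives the sequence 5′ to 3′ on the gene's strand and capitals mark CG dinucleotides. Vpreb1 is at chr16:16869236-16869375 (minus strand), Igll1 at chr16:16863966-16864105 (minus), Pax5 at chr4:44710675-44710814 (minus), Rpl35 at chr2:39005112-39005251 (minus), Fau at chr19:6057827-6057966 (plus) and Hbb-bt at chr7:103813904-103814043 (minus).
Vpreb1: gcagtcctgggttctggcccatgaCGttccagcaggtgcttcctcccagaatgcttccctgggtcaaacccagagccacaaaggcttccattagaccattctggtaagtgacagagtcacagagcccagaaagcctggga
Igll1: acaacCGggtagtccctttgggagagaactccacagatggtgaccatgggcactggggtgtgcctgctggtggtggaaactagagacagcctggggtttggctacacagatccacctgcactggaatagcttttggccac
Pax5: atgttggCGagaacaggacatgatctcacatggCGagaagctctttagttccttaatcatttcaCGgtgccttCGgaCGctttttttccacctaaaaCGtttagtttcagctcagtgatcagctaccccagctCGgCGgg
Rpl35: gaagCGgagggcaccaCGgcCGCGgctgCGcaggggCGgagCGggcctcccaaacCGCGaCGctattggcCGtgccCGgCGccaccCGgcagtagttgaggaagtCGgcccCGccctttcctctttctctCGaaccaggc
Fau: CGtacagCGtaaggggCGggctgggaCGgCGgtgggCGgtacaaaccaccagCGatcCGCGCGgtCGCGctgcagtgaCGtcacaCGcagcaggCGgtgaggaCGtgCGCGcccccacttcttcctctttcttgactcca
Hbb-bt: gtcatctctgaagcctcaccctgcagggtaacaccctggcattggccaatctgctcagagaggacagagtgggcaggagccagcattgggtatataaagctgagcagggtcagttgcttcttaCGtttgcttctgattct

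The stretch of Vpreb1 holds 1 CG and that of Igll1 also 1, against 17 for Rpl35 and 18 for Fau, both ribosomal protein genes at 99.9. Over the whole window the observed over expected CG ratio, which sets the CG count against the C and G counts, was 0.0917 for Vpreb1 and 0.0833 for Igll1, and 0.854 for Rpl35, 1.12 for Fau and 0.882 for Pax5. Vpreb1 and Fau thus lay among the 100 brightest genes with CG-poor and CG-rich starts. The median ratio was 0.756 over detected genes with a window and 0.389 over the 27025 windows of the table. It was 0.815 for the B-lineage transcription factors (13 of 15 with a window) and 0.216 for the recombination and IL-7 receptor genes (11 of 12). It was 0.940 for replication and mitosis genes (19 of 22). Only 78.2% of genes not detected had a window, under the minimum of 80% set here, so no value is given for them. The same holds for all genes measured (79.2%) and for the pre-B cell receptor list.

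The 2 short motifs searched were rare. Shares over all windows again include genes not measured here. The letters TATAAA, from 40 to 15 bases before the start on the gene's strand, occurred in 2.22% of all windows and 1.61% of those of detected genes, and Hbb-bt was among them. CTTTC or CTTCC within 10 bases of the start, on the gene's strand, occurred in 6.61% of all windows and in 8.03% of those of detected genes, Rpl35 and Fau included. A match is a string of letters and no binding site.

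Sex-linked genes gave a mixed reading. Xist, the RNA that coats the inactive X chromosome, was detected with levels of -0.088, 0.21, 0.16 and 0.30. The Y-linked Eif2s3y had -1.44, -1.02, -1.29 and -1.22 and Ddx3y had -3.10, -2.72, -3.22 and -2.98, both detected. Kdm5d (8.202), Uty (28.1) and Usp9y (26.5), also on the Y chromosome, were not detected. By chromosome the share of detected genes ran from 48.9% (chromosome 6) to 61.7% (chromosome 12) on the autosomes and was 45.1% of 832 genes on the X chromosome.

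The hybridisations repeated closely. Over the 24537 probes above background in all 4, Spearman correlations across probes were 0.993 for each pair of Cy3 hybridisations and 0.991 to 0.992 between Cy3 and Cy5, as a description over probes that share each array. Over all probes, dim ones included, the correlations were lower, 0.943 to 0.945 between Cy3 hybridisations and 0.936 to 0.939 between Cy3 and Cy5. The call of well above background was the same for 93.7% to 94.9% of probes per pair. The median SD of the 24537 probes was 0.121 log2 units over all 4 hybridisations and 0.105 over the 3 with Cy3. Where a probe was spotted repeatedly on an array (219 probes), the median SD between its spots was 0.071 to 0.076. The spread depended on brightness, from 0.243 in the dimmest of 5 equal bins of probes to 0.086 in bin 4 and 0.099 in the brightest. Of the 100 brightest genes, 90 were shared by all 4 hybridisations.

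**Figure D4:**
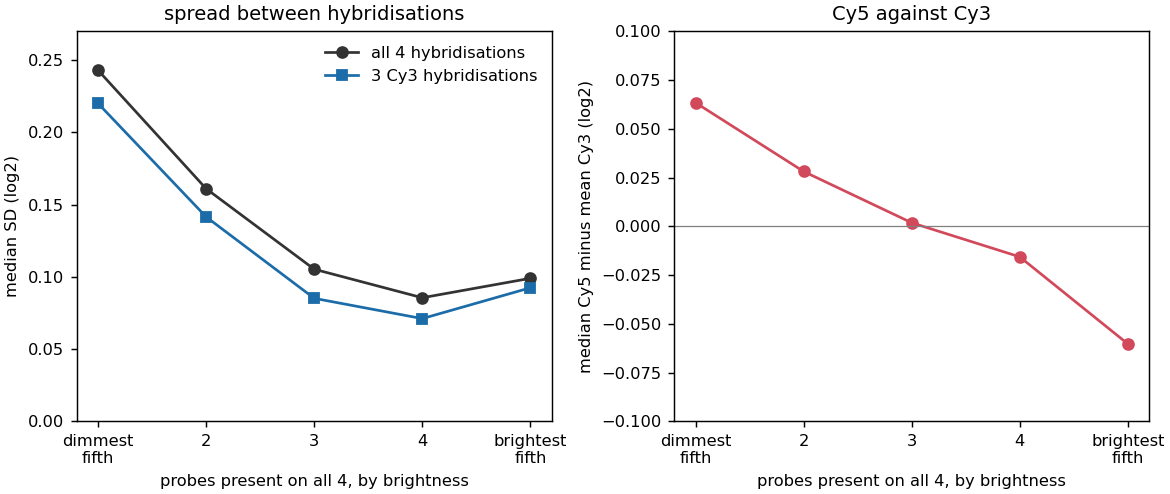
Probes above background in all 4 hybridisations, in 5 equal bins by brightness (x axis). The left panel shows the median SD between hybridisations in log2 units, which falls from 0.243 to 0.086 from bin 1 to bin 4. The right panel shows the median Cy5 minus mean Cy3 level, which runs from 0.063 in the dimmest to -0.060 in the brightest bin.

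The Cy5 hybridisation differed from the mean of the Cy3 ones by over 2-fold for 51 probes (0.208%), 39 higher and 12 lower in Cy5. Dye, array and the R/R partner on that array cannot be told apart here. The 10 genes with the largest difference in each direction lay, Hmgb1 apart, at percentiles of 74.5 or less. Ifnab had levels of -2.80, -2.95 and -2.83 in Cy3 and -0.49 in Cy5, and Actn1, an actin crosslinker, had -0.79, -0.87 and -1.16 against 0.53. Pak6 (1.58 higher in Cy5), Gpr89 (1.51), Vwa5b2 (1.43) and Usp49 (1.40) followed the same pattern. In the other direction Gm5177 had -0.87, -0.83 and 0.011 in Cy3 and -1.95 in Cy5. Hmgb1, a chromatin protein gene, lay at 98.9 and was the exception, with 7.57, 7.53 and 7.68 in Cy3 and 6.70 in Cy5. Its other 6 probes lay between 90.3 and 98.5.

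Between the Cy3 hybridisations alone, the largest SD belonged to Snx21, with levels of -2.92, -2.40 and -0.89. Itgav, an integrin chain gene, had -1.45, 0.26 and -1.55, so that hybridisation 2 stood apart. Ciita, the activator of MHC class II genes, had -1.98, -0.87 and -2.50, and -0.92 in Cy5, the widest spread of the mature B list at an SD of 0.80 over 4. Adra2b was the brightest of the 10 genes with the largest Cy3 SD, at percentile 83.3, with levels of 1.69, 1.28 and 0.11.

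Between 47.6% and 49.8% of probes were well above background per hybridisation. Of 308 negative control spots, 1, 2, 1 and 4 were called well above background, and no spot was saturated. The 100 brightest probes held 13.7% to 15.03% of the total intensity. The number of arrays limits the precision.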

How the data were processed

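Total RNA (integrity numbers 9.8 to 10.0, 100 ng labelled, per the labels) was hybridised on 4 two-colour Agilent arrays of 1 slide. Separate R/R samples lay beside the WT pool, which was taken as 1 pool. The intensity values deposited by the authors came from Feature Extraction 11.5.1.1, per the file headers, and were background-subtracted and dye-normalised within each array, which ties the WT channel to the R/R channel beside it. Other values, the software's calls of well above background, saturation and outlier spots, were used as deposited, per the file headers. The authors' ratio table holds no level of the WT pool and was not used. 

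Control spots and 117 to 153 outlier spots per array were removed. The mean over a probe's remaining spots was taken with pandas 2.3.3 in Python 3.11.15. A probe was above background where at least 50% of its spots were. Accessions were matched to symbols through RefSeq (GRCm38.p6), which left 28025 probes without one. Ranking, scaling and the choice of a gene's brightest probe were tested on simulated data. The software's calls of well above background were not simulated, so that test does not bear on them. Genes were named by rule: 4 B-lineage markers, the 30 brightest, the 4 brightest of each list with defining genes not detected, the 10 most variable between Cy3 hybridisations, the 10 most different in Cy5 in each direction, and sex-linked genes. Some other members were named after their values were seen, and a few genes chosen by rule are left unreported. The members and the 24 lists were chosen with earlier results of these data known. Alternatives changed the presence rule, signal, outlier flags, averaging, scaling, probes of a gene and hybridisations. The signal before dye normalisation was added after seeing the data.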

Additional observations from a re-analysis of the deposited data

Results flagged for a closer look

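In 4 of the 115 named genes examined (3.48%) 1 hybridisation of the WT pool stood apart from the other 3 by more than Dixon's criterion at 95% allows, where chance flags about 1 in 20. Cdkn2a had a level of 5.19 in hybridisation 3, above 4.95 to 4.97 in the others. Jchain, which encodes the joining chain of polymeric immunoglobulin, had 0.534 in hybridisation 3, below 0.782 to 0.809. Il7r had 1.41 in the Cy5 hybridisation, below 1.73 to 1.77. Ldha, the lactate dehydrogenase of glycolysis, had 8.57 in the Cy5 hybridisation, below 8.84 to 8.86. The cause of these gaps was not tested.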

How the results depend on the processing

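Most values kept their size. The number of detected genes was 11703 and ran from 11780 to 11852 with 1 hybridisation left out, and was 10522 where most of a gene's probes had to be above background. Lists whose counts moved by over 1.5 times stand beside their counts above. The early B lists stayed at 41 of 41 under every alternative but that one, which gave 39. Their median percentile of 88.7 moved by more than its spread to 88.3 in the Cy5 hybridisation alone, 87.5 with the mean of a gene's probes, 87.8 with median signal minus local background and 87.8 with the signal before dye normalisation, and ran from 88.6 to 88.7 with 1 hybridisation left out. The median of the liver cell lists, 39.8, was 38.2 with the mean of a gene's probes and ran from 37.9 to 41.1 with 1 hybridisation left out. The median SD between hybridisations, 0.121, was 0.183 over all probes. The 100 brightest genes shared 69 with the order by the mean of a gene's probes, and 97 to 100 with each other alternative. Of 476 percentiles of named genes recomputed, 54 moved by more than their spread. No cause was tested. No paired analysis was possible because the WT pool was taken as 1 sample and no groups were compared. Ranks of genes not detected carry little: Kit ran from 5.96 to 33.6 over the 4 hybridisations.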
